A study of Mus musculus with 661 samples.

Results

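Mesenchymal stromal cells of the central marrow that carry the leptin receptor (MSC-L) were compared between old and young mice. All cells that the labels name as sorted MSC-L were taken, whatever cluster they were later placed in, which gave 111 of the 661 single cells of the series, 58 from old and 53 from young mice. Both ages were C57BL/6 wild type mice, about 2 months old in the young and about 24 months old in the old group. The cells were sorted from flushed marrow as Ter-119-, CD45-, CD31- and Sca-1- cells that stained for CD51, PDGFRα and LepR. The study set these cells beside sorted stromal and endothelial populations of the endosteum and marrow to ask how the niche of blood stem cells differs in old mice. It drew on 3 young and 4 old mice, of both sexes over the study as a whole. The labels of the cells name no mouse, so all cells of an age were treated as 1 sample, no test between the ages was made, and each difference given here has no replicate check.

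MSC-L surround the sinusoids of the marrow and are the main local source of the chemokine CXCL12 and of stem cell factor, the product of *Kitl*, which hold blood stem cells in place and keep them alive. They are also the progenitors of marrow adipocytes and, in adult bone, of part of the osteoblasts. Receptors for interleukin-1, tumor necrosis factor, leptin and bone morphogenetic proteins let them respond to inflammation, nutrition and bone turnover.

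Full-length cDNA of each cell was read without molecular identifiers. Nuclear gene counts per cell ran from 216816 to 667862 in young MSC-L, with a median of 463538, and from 87576 to 533765 in old MSC-L, with a median of 352562. After each cell was thinned to 90000 nuclear counts, which left out 1 old cell, a median of 4867 genes was detected in young and 4507 in old cells. The median share of mitochondrial counts was 1.27% in young and 1.61% in old cells. A ribosomal RNA entry, *Rn18s-rs5*, took a median of 4.06% of the nuclear counts of a young and 5.17% of an old cell. The 50 highest genes held over 50% of the counts in 1 young and 1 old cell. The library numbers in the cell names fall into 3 separate runs, of which run 1 lies below number 19000 with 20 young and 20 old cells, and runs 2 and 3 lie above it with 13 young and 18 old and with 20 young and 20 old cells. These are numbers of libraries and not of mice. Old cells of run 3 were the shallowest: their median was 234402 nuclear counts, that of the young cells beside them 490179. The part of depth in the differences below was not tested beyond the thinned values.

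The defining transcripts of the sort were present at both ages. Levels are counts of the summed cells scaled to 1000000 nuclear counts (CPM), and their 95% exact Poisson intervals in parentheses, like the exact Clopper-Pearson intervals of shares, cover counting error only, since amplified reads are not independent molecules. *Lepr* stood at 3160.4 CPM (3137 to 3184) in young and 3239 CPM (3214 to 3264) in old, *Cxcl12* was found in every cell of both ages and *Pdgfra* at 599.5 CPM in young and 697 CPM in old. As genes of the gate, *Lepr* and *Pdgfra* check the sort and are not results. *Ptprc* (CD45), against which the sort selected, had 1 count in young and 16 counts in old cells, and *Pecam1* (CD31) 15 and 141 counts, of which 1 old cell held 83.7%. In the deposited clusters, 39 young cells lay in M1, 12 in M2 and 2 in M5, against 33, 23 and 2 old cells. M2 thus held 22.6% (12.3 to 36.2%) of young and 39.7% (27 to 53.4%) of old cells, and these intervals overlapped. The median mitochondrial share was 2.59% in young and 3.02% in old cells of M2, against 1.15% and 1.32% in M1. For *Rn18s-rs5* the medians were 6.84% and 8.37% in M2, against 3.89% and 4.31% in M1. After thinning, 3942.5 and 3519.5 genes were detected in young and old cells of M2, against 5033 and 5084 in M1.

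Across the genome, most genes of old MSC-L stood within 2-fold of their young level over all cells. A smaller set differed at least 2-fold in the same direction over all cells and in both ranges of library numbers. Levels of 7361 genes were compared, those at 10 CPM or more in at least 20% of the 111 cells and with at least 500 summed counts. On a log2 ratio with 1 CPM added to both levels, 155 genes (2.11%) were at least 2-fold higher in old cells over all cells, below library number 19000, from 19000, and again without the cell of each age that held the most counts of the gene. By the same 4 readings 163 genes (2.21%) were at least 2-fold lower, so that 318 (4.32%) differed in either direction. These genes are called higher or called lower below. The median log2 ratio over all 7361 genes was 0.0014, which does not show their spread. At 20 cells of each age, the median absolute log2 ratio between the ages was 0.58 in run 1 and 0.73 in run 3. Of the genes called higher, 25 were past 4-fold over all cells, as were 28 of those called lower. In all 3 runs taken singly, 136 of the 155 and 147 of the 163 genes had 1 direction, against 29.2% of all entered genes, but the rule itself used run 1 and the sum of runs 2 and 3, so this is largely set by the choice of genes.

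Single runs differed widely, which bears on how any 1 of these genes can be read. Over all cells alone, 465 genes (6.32%) were 2-fold higher and 445 (6.05%) lower. Within the cells below library number 19000 the counts were 931 (12.6%) higher and 1061 (14.4%) lower, and within those from 19000 they were 853 (11.6%) and 783 (10.6%). Genes 2-fold higher in both ranges numbered 158 (2.15%) and genes lower in both 167 (2.27%). Against these, 98 genes (1.33%) were 2-fold higher below 19000 and 2-fold lower from 19000, and 119 (1.62%) were the reverse. At 20 cells on each side, old and young cells differed past 2-fold in 27.1% of genes in run 1 and 36% in run 3. Run 3 differed from run 1 in 25.6% of genes within young cells and in 32.5% within old cells, about as many as the ages did within a run.

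**Figure D1:**
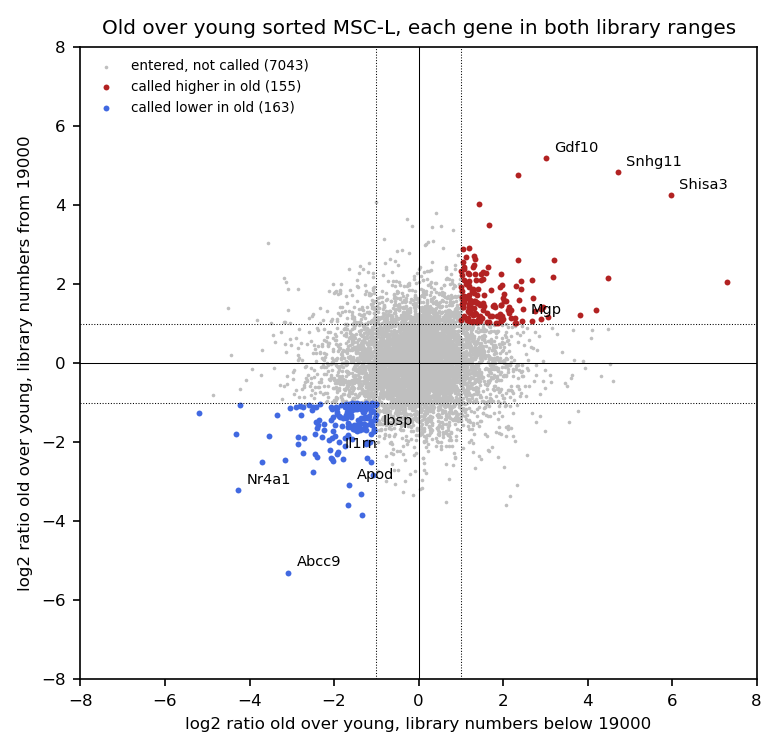
Log2 ratio of old over young MSC-L for each of 7361 genes, from cells with library numbers below 19000 (x axis) and from 19000 (y axis). Red points are the 155 genes called higher and blue points the 163 called lower, dotted lines mark 2-fold, and *Snhg11*, *Gdf10* and *Abcc9* lie far from 0 in both ranges.

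Among the 12 genes called higher with the largest ratios, a host gene of small nucleolar RNAs, an inhibitor of growth factor receptors and a member of the bone morphogenetic protein family were scarce in young cells and carried by many old ones. *Snhg11*, the host gene, stood at 11.1 CPM (9.81 to 12.6) in young and 338 CPM (329.6 to 346) in old, a log2 ratio of 4.80. It was found at 10 CPM or more in 9.43% (3.13 to 20.7%) of young and 69% (55.5 to 80.5%) of old cells. The lowest, median and highest young cells held 0, 0 and 411 CPM, against 0, 209 and 3806 CPM in old. In each run the median young cell held no count, while the median old cell held counts, and the log2 ratios were 4.71, 7.52 and 4.61 in runs 1 to 3. *Shisa3*, whose product keeps Wnt and fibroblast growth factor receptors from the cell surface, stood at 2.10 CPM (1.55 to 2.79) in young and 74.3 CPM (70.5 to 78.2) in old, at log2 4.60 (5.97, 3.10 and 5.41 by run). It was carried by 2 of 53 young and 21 of 58 old cells, so most cells of both ages lacked it. *Gdf10*, which encodes bone morphogenetic protein 3b, stood at 13.0 CPM (11.6 to 14.6) in young and 225 CPM (218 to 232) in old and was carried by 5 of 53 young and 34 of 58 old cells. The lowest, median and highest young cells held 0, 0 and 334 CPM, against 0, 18.3 and 1308 CPM in old. Its log2 ratio was 4.01, with 3.01, 3.60 and 7.96 by run.

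Single cells weighed on these ratios too. In young cells 1 cell held 47.6% of the young counts of *Snhg11*, 68.8% of *Shisa3* and 40.1% of *Gdf10*. Of the old counts of the 3 genes, 1 cell held 11.3, 20.2 and 10.6%. Without the top cell of each age the log2 ratios were 5.46 for *Snhg11*, 5.21 for *Shisa3* and 4.53 for *Gdf10*. Each of the remaining 9 of the 12 genes drew at least 15.3% of its old counts from 1 cell. They were the riboflavin transporter gene *Slc52a3* (log2 2.97, and 4.10 without the top cells), the calcium release channel gene *Ryr2* (2.89, and 3.63 without them), *Tti1*, a partner in the folding of large kinases (2.85), the kinesin gene *Kifc3* (2.80), *Nol4l* (2.59), the ETS family repressor gene *Elk3* (2.54), the deubiquitinase gene *Usp46* (2.49), the matricellular protein gene *Smoc2* (2.34) and the scaffold gene *Tanc2* (2.26). All but *Ryr2* were higher in old cells in every run, and *Ryr2* stood at 7.30, -1.21 and 4.78. In *Slc52a3*, 1 of the young cells held 80% of the young counts. *Snhg11*, *Slc52a3*, *Tti1* and *Nol4l* lie on chromosome 2 between bases 150000001 and 160000000, a stretch looked at after the values were seen. Of its 66 entered genes, 6 (9.09%) were called higher and 0 lower, against 2.11% called higher of all genes. The median log2 ratio of the stretch was -0.061, and its share was not tested.

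A number of genes called higher were expressed at higher levels, and these were chosen after their values were seen. *Mgp* encodes matrix Gla protein, an inhibitor of calcification, and stood at 726 CPM (715 to 737) in young and 2122 CPM (2102 to 2143) in old, a log2 ratio of 1.55 with 2.44, 0.59 and 1.53 by run. Levels of *Mgp* ran from 0 to 3919 CPM in young cells with a median of 335, and from 0 to 10266 CPM in old cells with a median of 1282. *Lgr5*, the receptor of R-spondins and a stem cell marker of epithelia, was at 49.3 CPM in young and 211 CPM in old (log2 2.07, and 2.69 without the top cell of each age, as 1 young cell held 43.9% of the young counts), and *Angpt4*, a ligand of the endothelial receptor TIE2, at 119.6 CPM in young and 341 CPM in old (1.51). The microfibril gene *Thsd4* was at 143 CPM in young and 386 CPM in old (1.42), and the cytoskeletal adaptor gene *Sorbs2* at 111 CPM in young and 309.6 CPM in old (1.47). All 5 were higher in old cells in each run. Within cluster M1 alone the log2 ratios were 2.08 for *Mgp*, 2.02 for *Lgr5*, 1.74 for *Angpt4*, 1.47 for *Thsd4* and 1.37 for *Sorbs2*.

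At the other end, a potassium channel subunit, a lipocalin and an immediate early nuclear receptor were among the genes called lower with the largest ratios. *Abcc9* encodes the sulfonylurea receptor SUR2 and stood at 76 CPM (72.5 to 79.7) in young and 2.21 CPM (1.60 to 2.97) in old, a log2 ratio of -4.59 (-3.08, -4.75 and -5.76 by run). It was carried by 25 of 53 young and 2 of 58 old cells, and no old cell exceeded 51.8 CPM while young cells reached 628 CPM. *Apod*, a secreted lipocalin that binds lipids, stood at 189 CPM (183 to 195) in young and 28.9 CPM (26.6 to 31.4) in old (log2 -2.67, with -1.65, -5.78 and -2.33 by run) and was carried by 32 of 53 young and 13 of 58 old cells. *Nr4a1*, an orphan nuclear receptor gene switched on within minutes of many stimuli, was at 171 CPM in young and 16.6 CPM in old (log2 -3.28), yet more old than young cells carried it, with 13 of 53 young and 19 of 58 old cells. Young cells reached 2086 CPM, and 1 of them held 35.8% of the young counts.

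*Fmod*, a small proteoglycan that binds collagen fibrils, was at 43.8 CPM in young and 5.23 CPM in old (log2 -2.84, with -5.19, -1.74 and -0.92 by run) and carried by 21 of 53 young and 4 of 58 old cells. The other 8 of the 12 lowest ratios belonged to the adaptor gene *Sh2d3c* (log2 -2.98), the glycolipid anchor enzyme gene *Pigg* (-2.85), the GTPase gene *Hras* (-2.85), *Sssca1* (-2.83), the transfer RNA modification gene *Tyw1* (-2.68), the receptor phosphatase gene *Ptprk* (-2.63), the Eph receptor adaptor gene *Anks1* (-2.58) and the lysyl-tRNA synthetase gene *Kars* (-2.45). In young cells 1 cell held 55.6% of the young counts of *Ptprk*, 47.2% of *Tyw1* and 35.4% of *Fmod*. Without the top cell of each age the log2 ratios of these 3 were -2.17, -2.20 and -2.95. All 12 genes were lower in old cells in every run and past 2-fold within cluster M1. There the ratio shrank most for *Ptprk* (-1.20), *Tyw1* (-1.47) and *Pigg* (-1.73), and it grew for *Abcc9*, *Hras*, *Fmod*, *Sssca1* and *Kars*.

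Genes called lower that were expressed at higher levels included secreted and endoplasmic reticulum proteins, again chosen after their values were seen. *Htra1*, a secreted serine protease that cleaves matrix proteins and binds transforming growth factors, stood at 619.9 CPM (609.7 to 630.2) in young and 125 CPM (121 to 131) in old, a log2 ratio of -2.30 with -2.06, -3.02 and -1.84 by run. The lowest, median and highest young cells held 0, 315 and 3263 CPM, against 0, 33.2 and 710.4 CPM in old. The levels were 334 CPM in young and 116 CPM in old for *Os9*, a lectin of protein quality control (log2 -1.52), and 249.8 CPM in young and 89.2 CPM in old for *Emb*, which encodes a chaperone of monocarboxylate transporters (-1.47). *Gadd45g*, a stress-induced gene of growth arrest, stood at 156 CPM in young and 40.8 CPM in old (-1.91). Each of these 4 was lower in old cells in every run and within cluster M1.

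The share of cells that carried a gene moved in the same direction in all runs for further genes. After thinning, the 6 largest gains among old cells were in *Snhg11* and *Gdf10*, in the laminin gene *Lama2*, in *Skil*, which encodes a repressor of transforming growth factor signals, in the amino acid transporter gene *Slc36a2* and in *Dennd4a*, an activator of Rab proteins. *Lama2* was carried by 39.6% (26.5 to 54%) of young and 75.9% (62.8 to 86.1%) of old cells, but its log2 ratio was 0.68 and turned to -0.51 in run 2, and 1 young cell held 37.6% of the young counts. *Slc36a2* was carried by 13 of 53 young and 32 of 58 old cells at log2 1.72, *Skil* by 19 of 53 young and 38 of 58 old cells at 1.04, and *Dennd4a* by 16 of 53 young and 34 of 58 old cells at 1.39, none of them called. The 6 largest losses were *Abcc9*, *Apod*, the adhesion molecule gene *Negr1* (log2 -1.80), *Cnnm1* of a magnesium transporter family (-1.36), the pyrophosphate transporter gene *Ank* (-1.64) and the processed pseudogene *Gm10250* (-1.29), whose reads may belong to its parent gene.

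**Figure D2:**
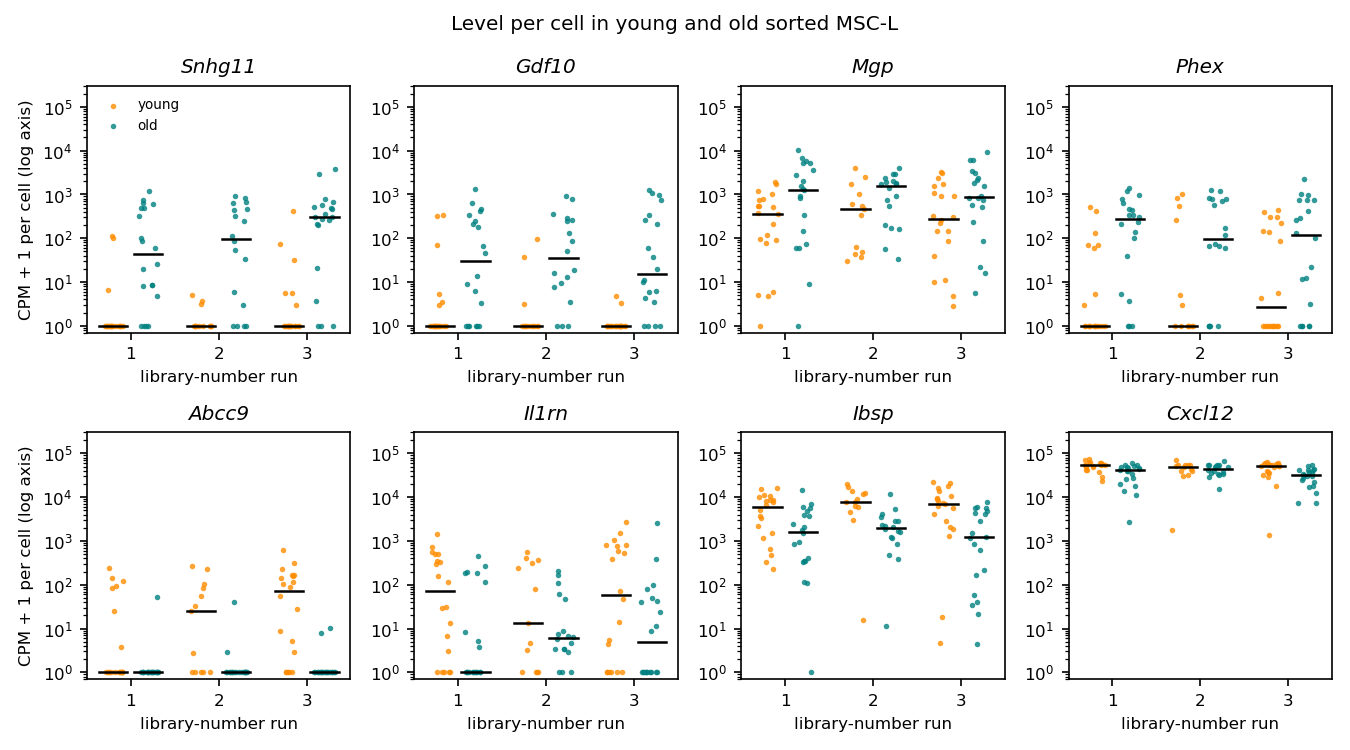
CPM + 1 of 8 genes in each young (orange) and old (teal) cell, by library-number run, on a log axis, with black bars at the median cell. Young cells with any *Snhg11* or *Gdf10* and old cells with any *Abcc9* were few in each run, whereas all cells held *Cxcl12*.

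Factors that support blood stem cells had no called member and a median near 0, while single members ran from log2 -1.39 to 1.00 over all cells. *Cxcl12* stood at 48750.1 CPM (48659.5 to 48841) in young and 39599 CPM (39511 to 39688) in old, a log2 ratio of -0.30, with -0.49, 0.047 and -0.47 by run. The lowest, median and highest young cells held 1374, 52431 and 74717 CPM, against 2649.6, 38608 and 65534 CPM in old. *Kitl* was at 1787 CPM (1769 to 1804) in young and 1672 CPM (1654 to 1690.0) in old (log2 -0.096), but its ratio changed sign between runs, at -0.95, 0.72 and -0.45. Of the blood-supporting factors, 18 of 27 were entered, with 0 called higher and 0 called lower, where 4.32% of all genes were called. Their median log2 ratio was -0.049, beside 0.0014 over all entered genes, and it was -0.39, 0.42 and -0.23 by run. *Spp1* (osteopontin) was at log2 0.52, the adhesion molecule gene *Vcam1* at 0.071 and *Csf1*, the growth factor of macrophages and osteoclasts, at -0.039.

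Genes that set MSC-L apart from other stroma had 1 called member, a share (4.35%) like that of all genes. Of this list 23 of 24 were entered, with 0 called higher and 1 called lower, 17 below 0 and a median log2 ratio of -0.17 (-0.48, 0.060 and -0.21 by run). The called gene was *Agt*, angiotensinogen, at 1405 CPM (1389 to 1420.0) in young and 685 CPM (674 to 697) in old and log2 -1.03 (-1.02, -0.71 and -1.39 by run), short of 2-fold within cluster M1 (-0.73). *Agt* in single cells ran from 1.5 to 3639 CPM in young cells with a median of 1347, and from 0 to 3329 CPM in old cells with a median of 425. *Adipoq*, which encodes the adipokine adiponectin and marks MSC-L with adipocyte features, was at 2197 CPM in young and 1175 CPM in old (log2 -0.90) and was lower in old cells in each run without reaching 2-fold over all cells. *Igfbp5*, an insulin-like growth factor carrier, was at log2 -0.045.

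The interleukin-1 (IL-1) system had 1 called gene, that of the receptor antagonist that blocks IL-1 signaling, and its entered members ran from log2 -2.19 to 1.23. *Il1rn* stood at 341 CPM (333 to 349) in young and 74.1 CPM (70.3 to 78) in old, a log2 ratio of -2.19 that held in each run (-1.94, -1.84 and -2.13) and within cluster M1 (-2.50). It was carried by 60.4% (46 to 73.5%) of young and 34.5% (22.5 to 48.1%) of old cells. The lowest, median and highest young cells held 0, 47.2 and 2719.8 CPM, against 0, 3.19 and 2516 CPM in old, so that single old cells still reached young levels. *Il1b*, the cytokine gene, had 1 count in young and 72 counts in old cells, and 6 old cells carried it at 10 CPM or more, of which 1 held 36.1% of the old counts. With 1 CPM added, *Il1b*, which was too rare to enter, stood at log2 2.17 over all cells. By run it was at 2.30, 2.86 and -0.15, with no count in old cells of run 3. The log2 ratio of these counts has a counting interval of 3.87 to 11.72. No young cell carried *Il1b* at that level, which by a limit of 3 cells in 53 allows a share of up to 5.66% and by the exact interval up to 6.72%. The signaling receptor gene *Il1r1* was at log2 -0.12 and the adaptor gene *Myd88* at -1.0, of which *Myd88* stood near 0 in run 3 (0.0080). Of the IL-1 system, 11 of 19 were entered with 0 called higher and 1 called lower (9.09%, against 4.32% of all genes), and the median was -0.31 (-0.12, -0.64 and -0.23 by run).

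Among other inflammatory genes, the targets of NF-kB, interferon responses and antigen presentation had 1 called member between them. Of the NF-kB targets, 18 of 30 were entered with 0 called higher and 0 called lower. Their median was 0.27, with -0.30, 0.55 and -0.013 by run, so only run 2 lay above 0. *Nfkbia*, the feedback inhibitor of the pathway, was at log2 -0.15. Of the interferon response, 25 of 36 were entered with 0 called higher and 1 called lower (4%, against 4.32% of all genes) and 7 above and 18 below 0, at a median of -0.21 (-0.52, 0.14 and 0.12 by run). The called member was *Ly6e*, an interferon-induced membrane protein, at 268 CPM in young and 119.6 CPM in old and log2 -1.16 (-1.41, -1.42 and -0.84 by run, -0.69 within M1). Genes of antigen presentation on major histocompatibility complex (MHC) class I were 20 of 20 entered with 0 called higher and 0 called lower and a median of -0.049 (-0.34, 0.45 and -0.34), and the heavy chain gene *H2-D1* was at log2 -0.68 (-0.86, -0.28 and -0.80).

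Chemokine ligands other than *Cxcl12* were mostly too rare to enter, with 2 of 21 entered and a median of -0.053 (-0.70, 0.15 and 0.23 by run). Neither of the 2 was called, where 4.32% of all genes were called. *Cxcl14* was at 1135 CPM in young and 1423 CPM in old (log2 0.33). *Cxcl13*, which attracts B cells and was too rare among cells to enter, had 2 counts in young and 2751 in old cells, at 141 CPM in old. It was carried by 0 young and 9 old cells (15.5%, 7.35 to 27.4%), and the cell with the most held 33.1% of the counts. With 1 CPM added, the log2 ratio was 7.03 (7.20, 7.23 and 6.67 by run), and the counting interval of the ratio itself was 8.80 to 13.70. Old cells with *Cxcl13* were present in every run.

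Of the complement genes, 10 of 18 were entered with 1 called higher and 0 called lower (10%, against 4.32% of all genes), and the median of -0.0044 (-0.68, 0.38 and -0.29 by run) turned to 0.046 when the runs were weighted alike. *Serping1*, the C1 inhibitor, was at 7055 CPM in young and 4008 CPM in old (log2 -0.82, with -0.71, -0.70 and -1.0 by run), and *Clu* (clusterin) at log2 -0.79 (-1.26, -0.15 and -0.55 by run). The called member was *C1qtnf7*, a secreted relative of C1q, at log2 1.57, which was -0.65 in run 3. Over all cells neither *Serping1* nor *Clu* reached 2-fold.

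Immediate early genes, which answer stimuli and also cell dissociation, varied by run and cluster. Of 17 of 25 entered there were 0 called higher and 1 called lower, the latter *Nr4a1* (5.88%, against 4.32% of all genes), and the median was -0.26 (0.20, -0.95 and -0.088 by run). Within cluster M1 alone the median was 0.53, the opposite sign. The transcription factor gene *Fos* stood at 2.53, -1.56 and -0.12 by run, *Jun* at 2.34, -0.24 and -0.56 and the matricellular gene *Cyr61* at 1.90, -3.40 and 0.60. Run 1 was thus higher in old cells for *Fos*, *Jun* and *Cyr61*, whereas *Nr4a1* was lower in every run (-4.27, -5.35 and -1.22).

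Among genes of bone formation, a mineral-binding sialoprotein was called lower and a phosphate-regulating peptidase higher in old cells. *Ibsp*, bone sialoprotein, stood at 8012 CPM (7975 to 8049) in young and 2829 CPM (2805 to 2853) in old, a log2 ratio of -1.50 with -1.05, -1.72 and -1.74 by run and -1.42 within cluster M1. The lowest, median and highest young cells held 3.59, 7311 and 21946 CPM, against 0, 1609 and 14376 CPM in old. Nearly all cells of both ages carried it, 52 of 53 and 56 of 58. *Phex*, whose loss causes phosphate wasting and soft bone, stood at 123 CPM (118 to 127) in young and 386 CPM (377 to 395) in old (log2 1.65, with 2.47, 0.89 and 1.80 by run) and was carried by 34% (21.5 to 48.3%) of young and 72.4% (59.1 to 83.3%) of old cells. Of the osteogenic list 16 of 24 were entered with 1 called higher and 1 called lower (12.5%, against 4.32% of all genes), and the median was 0.096 (0.60, 0.075 and -0.31 by run), which turned to -0.054 with the runs weighted alike. *Tnc* (tenascin C) was at log2 0.43.

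Adipogenic genes had no called member among 15 of 25 entered, where 4.32% of all genes were called. Their median was -0.066 (-0.17, -0.41 and 0.23 by run). *Apoe*, a lipid carrier, was at log2 -0.58 and lipoprotein lipase, *Lpl*, at -0.20. *Adipoq* is counted in this list too.

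Collagens and other matrix genes build the scaffold of marrow and bone, and their called share (3.70%) was no larger than that of all genes (4.32%). Of 27 of 30 entered, 20 were below 0 and 9 of these in every run, but only *Fmod* was called, in the lower direction. Their median of -0.34 was -0.040, -0.052 and -0.92 by run, so run 3 lay furthest from 0, and within cluster M1 it was 0.0076. *Col1a2*, a chain of type I collagen, was at log2 -0.40, *Sparc* (osteonectin) at -0.52 and *Bgn* (biglycan) at -0.14. Of the enzymes that build and cut matrix, 21 of 26 were entered, with 0 called higher and 0 called lower and a median of -0.15 (-0.11, -0.043 and -0.18).

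Synthesis and uptake of sterols and fatty acids held the largest share of called genes among the 22 lists, 4 of 15 entered out of 26 listed, all of them higher in old cells (26.7%, against 4.32% of all genes). *Srebf2*, the master regulator of cholesterol synthesis, stood at 16.8 CPM (15.2 to 18.6) in young and 77.3 CPM (73.4 to 81.3) in old, a log2 ratio of 2.13 with 2.43, 2.08 and 2.27 by run, and was carried by 14 of 53 young and 29 of 58 old cells. *Insig1*, which retains the sterol sensor in the endoplasmic reticulum, was at log2 1.80 (2.01, -0.24 and 3.88 by run, 2.43 without the top cells) and the desaturase gene *Sc5d* at 1.51 (1.18, -0.68 and 4.73), both below 0 in run 2. *Insig2*, a second retention factor, went the other way at 351 CPM in young and 180.4 CPM in old (log2 -0.96, with -0.91, -0.92 and -1.31 by run). The list median was 0.54, with 1.07, -0.24 and 0.59 by run. Except *Insig2*, these genes stood under 100 CPM at both ages and none was carried by more than 29 of 58 old cells, and the share of called genes was not tested against other lists.

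Signals of the transforming growth factor, bone morphogenetic protein and Wnt families had 2 called members among 19 of 32 entered (10.5%, against 4.32% of all genes), both receptors of transforming growth factor beta (TGF-beta). *Tgfbr1* was at 25.6 CPM in young and 72.2 CPM in old (log2 1.46, with 1.46, 2.40 and 1.27 by run) and *Tgfbr2* at 72.9 CPM in young and 162 CPM in old (log2 1.14, with 1.07, 2.45 and -0.045 by run), with almost no difference in run 3 for the latter and 0.67 within M1. *Sfrp4*, a secreted inhibitor of Wnt, was at 2569.8 CPM in young and 1189.8 CPM in old (log2 -1.11, with -0.74, -1.85 and -0.74 by run) and did not reach 2-fold below library number 19000. The list median was -0.034 (-0.081, 0.38 and -0.19 by run).

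Cells that stop dividing for good turn on inhibitors of the cell cycle and secreted factors, and 1 gene of this list was called, in the lower direction. For senescence and p53 targets, 12 of 23 were entered with 0 called higher and 1 called lower (8.33%, against 4.32% of all genes), at a median of -0.26 (-0.75, -0.14 and 0.018 by run). The called gene was *Igfbp3*, an insulin-like growth factor carrier, at 398 CPM (390.3 to 407) in young and 159 CPM (153 to 164) in old and log2 -1.32 (-1.93, -1.89 and -0.52 by run, -0.85 within M1). *Cdkn1a*, the cell cycle inhibitor p21, was carried by 10 of 53 young and 6 of 58 old cells and did not enter. Its log2 ratio was -0.60 with 2.49, -2.71 and -3.44 by run, and 1 cell held 57.7% of its young and 1 cell 64.9% of its old counts. For heat shock and the unfolded protein response, 20 of 30 were entered with none called, at a median of 0.21 (-0.072, 0.49 and 0.31).

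Of the antioxidant enzymes, 26 of 28 were entered with 1 called higher and 1 called lower (7.69%, against 4.32% of all genes), at a median of -0.15 (-0.11, -0.13 and -0.46 by run). *Gclm*, which supplies glutathione synthesis, was at log2 1.52 (1.53, 3.28 and 0.95), and *Hmox1*, which degrades heme, at -1.19 with 0.54 in run 3 and -0.50 within M1. The secreted peroxidase gene *Gpx3* was at 7419 CPM in young and 5589 CPM in old (log2 -0.41).

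Lists of energy metabolism, ribosomes and the clock held no called gene, where 4.32% of all genes were called. Nuclear genes of oxidative phosphorylation had a median of -0.31 over 30 of 32 entered, with 7 above and 23 below 0 (-0.097, 0.22 and -0.71 by run). Mitochondrially encoded genes, set against nuclear counts, had a median of 0.29 over 7 of 13 (0.14, 0.72 and 0.026), the opposite direction. The median exon length was 1901.5 bases in the nuclear list and 1144 in the mitochondrial list, against 5164 for all entered genes. The group of entered genes with the shortest exon lengths had a median log2 ratio of -0.20 (-0.36 in run 3). The part of length in the list medians was not tested. Cytosolic ribosomal proteins had -0.047 over 30 of 40 (-0.35, 0.27 and -0.54), and the circadian clock 0.36 over 13 of 18 (0.49, -0.61 and 0.48). In the clock list, *Per3* was at log2 0.70 (1.01, 0.63 and 0.38) and *Nr1d1* at -0.015 (-0.87, -0.84 and 1.35).

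**Figure D3:**
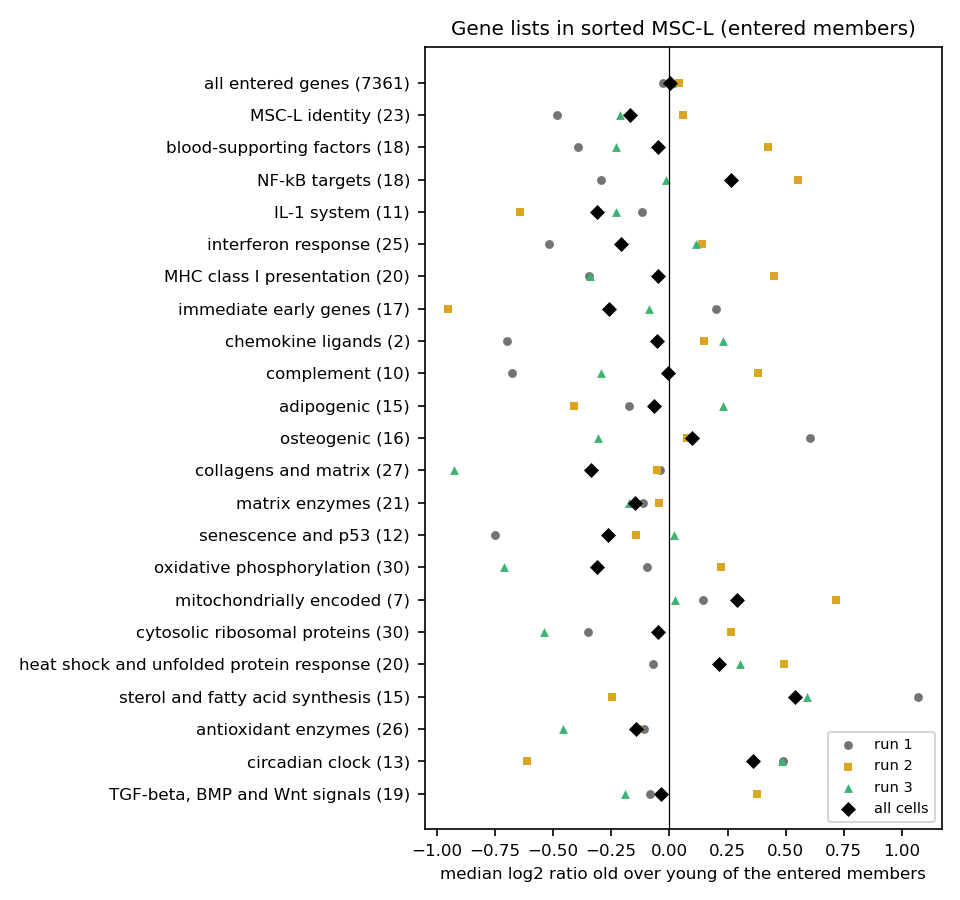
Median log2 ratio of old over young MSC-L of the entered members of 22 gene lists and of all entered genes, over all cells (black) and within each library-number run, with the number of entered members in parentheses. For most lists the runs fall on both sides of 0, whereas the IL-1 system, collagens and matrix, matrix enzymes and antioxidant enzymes lie below 0 and mitochondrially encoded genes above 0 in all 3 runs.

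Single cells carried the differences as a shift across many cells. Of the 155 genes called higher, a median of 50 was detected in a thinned young cell (10 to 81) and 71 in an old cell (22 to 100). Of the 163 called lower, a median of 75 (25 to 102) was detected in young and 45 (17 to 106) in old cells. Medians in run 1 were 54 young against 72.5 old for the first set and 79.5 against 47 for the second. In run 2 they were 52 against 73.5 and 62 against 47, and in run 3 they were 42 against 65 and 66 against 44. The same cells chose the genes, so these counts describe only how the differences are spread over cells. Within cluster M1, whose thinned cells held a median of 5033 genes in young and 5084 in old, the medians were 52 against 75 and 80 against 55. The typical called gene was nonetheless found in a minority of cells, in a median of 24.5% of young and 36.2% of old cells for genes called higher and 37.7% and 22.4% for genes called lower.

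Called genes differed in transcript length, a property looked at after the values were seen. The median exon length, over the 147 and 159 genes with an annotated length, was 5993 bases for genes called higher and 3596 for genes called lower, against 5164 for 7082 entered genes. When the entered genes were divided into 4 groups by exon length, the median log2 ratio went from -0.20 in the shortest over -0.067 and 0.095 to 0.21 in the longest. In the shortest group 25 genes (1.41%) were called higher and 65 (3.67%) lower, and in the longest 43 (2.43%) and 16 (0.903%). The order from short to long held in each run, with -0.21 to 0.11 in run 1, -0.069 to 0.18 in run 2 and -0.36 to 0.30 in run 3. In sorted MSC-S the same groups lay between -0.062 and -0.0060. Old MSC-L also had fewer counts per cell, and the part of depth, RNA quality or library preparation in the relation with length was not tested.

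Markers of other cell types were low and in part higher in old cells. The 20 blood cell markers summed to 39 CPM in young and 172 CPM in old, most abundant in young *Coro1a* of the actin cortex at 11.7 CPM and in old lysozyme, *Lyz2*, at 35.2 CPM, of which 1 cell held 80.3%. Of these 20, *Cd52*, *Tyrobp*, *S100a8*, *Elane*, *Mpo*, *Ngp*, *Ltf* and *Camp* had no count in young cells, and *Elane* and *Mpo* none in old. The 15 endothelial markers summed to 43.6 CPM in young and 63.8 CPM in old, led by the sialomucin gene *Emcn* in young and by *Vwf* of blood clotting in old, with *Stab2* at 0 in old. The 12 markers of Sca-1+ fibroblastic cells summed to 115 CPM in young and 252 CPM in old, led by *Ugdh* of hyaluronan synthesis in young and by the fibronectin domain gene *Fndc1* in old, with *Thy1* at 0 in old, and *Ly6a*, the gene of Sca-1 itself, was at 1.27 and 3.95 CPM. The 10 markers of pericytes and smooth muscle summed to 759 CPM in young and 578 CPM in old, most of it *Notch3* at 587 CPM in young and 542 CPM in old, with *Cnn1* at 0 in young. *Abcc9* belongs to that list. Cartilage markers, 10 of 11 in the table, summed to 75.2 CPM in young and 103 CPM in old, led in young by *Col2a1*, the type II collagen of cartilage (25.7 CPM, against 7.03 CPM in old), and in old by the transcription factor gene *Sox5*, and the 8 Schwann cell markers to 357 CPM in young and 370.0 CPM in old, led by the adhesion molecule gene *Ncam1*. At least 5 markers of 1 such type were carried by 2 young and 2 old cells, and leaving these out gave 163 genes called higher and 160 lower. Most markers were too rare to be called, with 9 of 75 entered and *Abcc9* called among them, where 4.32% of all entered genes were called. Of the 66 that did not enter, 8 met the 2-fold rule in all its readings as higher (*Laptm5*, *Lyz2*, *Cd74*, *Hbb-bs*, *Hba-a1*, *Flt4*, *Mfap5* and *Fndc1*) and 2 as lower (*Myh11* and *Col2a1*). Without the filter on low genes, the same rule gave 759 higher and 573 lower of 25658 genes, entered genes included. The share among these markers was not tested against it. *Mfap5*, a microfibril gene of fibroblasts, stood at 1.58 CPM in young and 64.6 CPM in old (log2 4.67), and 1 cell held 45.5% of its old counts. The part of other cell types in the differences was not tested.

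In sorted endosteal MSC-S, the Sca-1+ mesenchymal cells of the bone lining with 59 young and 59 old cells, the genes called in MSC-L showed mostly small differences. Of 85 genes called higher in MSC-L that were also entered in MSC-S, 5 (5.88%) were 2-fold higher and 1 (1.18%) lower in old MSC-S. Of 125 called lower, 5 (4.00%) were 2-fold lower and 5 (4.00%) higher. Over 6173 genes entered in both, 176 (2.85%) were 2-fold higher and 184 (2.98%) lower in old MSC-S. Directions in MSC-S were close to even, with 46 of the 85 and 64 of the 125 above 0. *Snhg11* was higher in both, at log2 2.05 in MSC-S, but stood low there at 2.00 CPM in young and 11.4 CPM in old. *Ibsp* was lower in both, at -1.90 in MSC-S (331 CPM in young and 87.7 CPM in old). *Mgp* stood at -0.76 in MSC-S, and *Il1rn* was all but absent there at both ages, so its ratio could not be compared. The difference between the populations was not tested, and the labels do not tell whether cells of both came from the same mice.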

How the data were processed

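The deposited table of HTSeq gene counts, 1 column per cell, was used as the authors gave it. Their processing notes name GSNAP version 2015-09-29 for alignment to GRCm38.p4. Of 46078 entries, 270 that repeated a symbol were summed, which left 45771 nuclear and 37 mitochondrial genes. Levels are CPM of the summed cells of an age, and spike-in counts were not analyzed here. A gene entered at 10 CPM or more in at least 20% of cells and 500 summed counts. It was called past 2-fold, with 1 CPM added, over all cells, in each library-number range and without the top cell of each age. Thinning drew 90000 nuclear counts per cell. Clusters come from the deposited annotation of the study. Doublets were not called, and cells with 5 or more markers of another type were counted instead.

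Named were the 12 largest ratios of called genes each way, and the 6 largest changes each way in the share of cells that kept their direction in all 3 runs. Also named were called list members, the 3 members of each list with most counts, and *Kitl*, *Cxcl12*, *Lepr*, *Il1b*, *Il1rn*, *Ly6a* and *Cdkn1a*. Members and lists were chosen with earlier results of these data known. Exon lengths and loci came from GENCODE M21 on the same assembly, with 7082 of 7361 genes matched. The procedure was first tried on simulated data. Calculations ran in scipy 1.17.1, pandas 2.3.3 and numpy 2.4.6 under python 3.11.15, and plots in matplotlib 3.10.9.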

Additional observations from a re-analysis of the deposited data

Results flagged for a closer look

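Of 210 genes called in MSC-L and entered in MSC-S, the other sorted mesenchymal population, 6 (2.86%) were past 2-fold in the opposite direction in old MSC-S. They were picked for that direction, so it is no separate result. Their share was near that of all genes, since over 6173 genes 2.85% were 2-fold higher and 2.98% lower in old MSC-S. *Apod*, a secreted lipocalin, was at log2 -2.67 in MSC-L and 1.53 in MSC-S, where it stood at 481 CPM in young and 1395 CPM in old. The others stood lower in MSC-S than *Apod*, between 9.69 CPM (*Pdk3* in young) and 89.0 CPM (*Phykpl* in young). They were *Pla2g15*, a lysosomal phospholipase (log2 -1.97 and 1.30), *Csad*, an enzyme of taurine synthesis (-1.50 and 1.30), *Pdk3*, a kinase that restrains pyruvate dehydrogenase (-2.18 and 1.22), *Pex6* of peroxisome assembly (-1.20 and 1.21) and the lyase gene *Phykpl* (2.18 and -1.15). In MSC-S each kept its direction in both library-number ranges and without the top cell, which was a condition for being flagged. The difference between MSC-L and MSC-S was not tested.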

How the results depend on the processing

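Of 52 named called genes, 46 kept their direction under all 16 alternatives, of which the ranges, run 1 and the values without the top cell were part of the rule and could not reverse. Those that reversed did so in a single run: *Ryr2* in run 2 (log2 -1.21), *Insig1* (-0.24) and *Sc5d* (-0.68) in run 2, and *Tgfbr2* (-0.045), *C1qtnf7* (-0.65) and *Hmox1* (0.54) in run 3. Of 22 lists, 4 kept the sign of their median throughout.

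The numbers of genes called higher and lower, 155 and 163, depended on the rule. They were 759 and 573 of 25658 genes without the filter on low genes, 740 and 973 with library numbers below 19000 alone, which is also run 1, and 772 and 665 from 19000 alone, in both cases still required without the top cell of each age. They were 1381 and 1024 in run 2, 1114 and 1198 in run 3, and 482 and 439 with the mean of the log2 ratios of the runs. A 1.5-fold threshold gave 496 and 493, a 4-fold threshold 11 and 12, and all cells alone, with neither the ranges nor the reading without the top cell, 465 and 445. Other settings moved them less: 161 and 199 with the mean of CPM over cells, 158 and 164 with size factors, 166 and 217 after thinning, 165 and 176 with 0.1 CPM added. Members changed as well, with 117 of the 155 and 141 of the 163 genes still called with the mean of CPM, 115 and 138 after thinning, 152 and 160 with size factors, and all with 0.1 CPM added. Clusters M1 and M2 alone gave 165 and 161, with 136 and 133 still called. M1 alone gave 179 and 191, where 78 of the 155 and 86 of the 163 genes were still called and all but 1 kept their direction. The following were chosen after the data were seen: without *Rn18s-rs5* the numbers were 165 and 155, and without the 2 cells with over 50% of counts in 50 genes 152 and 163. The cause of these changes was not tested.

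No paired analysis was possible because the numbers in the cell names are not pairs, each age is 1 sample, and no test was made. All 3 runs hold both ages, and the ratios within runs and their mean compare the ages run by run without a test.

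With mouse, sort day and plate absent from the labels, differences between ages cannot be told from differences between mice or preparations. Counting was unstranded and without molecular identifiers, so overlapping genes and amplification are not resolved.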

Other observations

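Y-linked transcripts were found in 49 of 53 young and 57 of 58 old cells, and *Xist*, which silences 1 X chromosome in females, in 1 young cell by 1 count and in 1 old cell by 95 counts. The Y-linked genes summed to 221 and 372 CPM in young and old cells, with 206 and 237 CPM in run 1, 206 and 469 CPM in run 2 and 244 and 414 CPM in run 3. Of the 6 sex-linked genes 4 were entered with none called, where 4.32% of all genes were called. Their median log2 ratio was 0.79 (-0.19, 1.19 and 0.46 by run). The cause of the higher Y-linked level in old cells was not tested.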
